A study of Mus musculus with 8 samples.

Results

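The genes that encode the import of very-long-chain fatty acids (VLCFAs) into peroxisomes and their shortening there were examined in OT-I T cells that received a guide against Elovl1 or a non-targeting guide. Elovl1 encodes the enzyme that elongates saturated and monounsaturated acyl chains to very long ones. The set was given by name as 8 genes, and each of the 8 symbols was found among the 56805 symbols of the count table. They comprise 3 half-transporters of the ABCD family (Abcd2, Abcd3 and Abcd4), 4 enzymes or carriers of the oxidation cycle (Acox3, Hsd17b4, Scp2 and Acaa1a) and the carnitine acyltransferase Crot. The rule names them by function and uses no measured value, although it was written with earlier results of these data known, and 7 of the 8 passed the filter on low counts that left 16006 genes to test. Abcd2 did not.

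The cells were CD8+ T cells of OT-I mice, whose transgenic receptor recognises an ovalbumin peptide, on a Rosa26-Cas9 knock-in background that makes Cas9 in every cell. All cells, controls included, were activated in vitro, received a lentiviral vector and were sorted 3 days after transduction on CD90.1, a surface reporter of the vector. The control vector carried a non-targeting guide (sgNT) and the other a guide against Elovl1 (sgElovl1). The labels name 8 samples, 2 replicates of each condition in each of 2 experiments, which the study describes as mice, and the deposited table sums the 2 mice of a condition and experiment into 1 column. Each value below is therefore that of a pool of 2 mice, with 2 columns per condition, and the spread between mice within an experiment was not analysed here. The cells were edited as a bulk population, so that unedited cells may remain in the sgElovl1 pools. The study describes its mice as young adults chosen without regard to sex, and the labels tie no age or sex to a column. The text deposited for the series as a whole speaks of T cells recovered from tumours, whereas the label of every sample and the study's methods give cells kept in vitro, which is followed here.

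Peroxisomes shorten fatty acids that are too long for the mitochondrial pathway. VLCFA-CoA enters through half-transporters of the ABCD family, which pair in the peroxisomal membrane. An acyl-CoA oxidase then introduces a double bond and passes the electrons to oxygen, a multifunctional enzyme hydrates and dehydrogenates the product, and a thiolase cleaves off acetyl-CoA. The shortened chains leave the organelle as carnitine esters made by CROT, or as free acids after a thioesterase has acted, and can be oxidised further in mitochondria. In liver several of these genes are classical targets of the nuclear receptor PPARα.

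Library totals ranged from 49068952 to 63623476 counts per column, so that a gene with 0 counts may still have had up to 0.0474 to 0.0601 CPM, the level of 3 counts. CPM are counts divided by the library total of their column and multiplied by a constant common to all columns, after TMM scaling. The share of counts from mitochondrial genes was 7.72% in sgNT and 9.72% in sgElovl1 cells of experiment 1, and 10.2% and 14.3% in experiment 2. The 8 markers of CD8 T cells summed to 5344 to 7208 CPM in every column, with Cd8a at a mean of 626 CPM. Markers of other cell types were far lower. The 4 B cell markers summed to 7.58 to 9.79 CPM with Ms4a1 at 0 counts, and the 7 myeloid markers to 9.31 to 14.9 CPM with S100a8 and S100a9 at 0 and Lyz2 at 1 count in all. The remaining lists, other than that of CD4 T cells, were lower still. Markers of NK cells reached 1.79 CPM at most with Ncr1 at 0, those of dendritic cells 1.16 CPM, erythroid cells 0.415 CPM with Hba-a2, Hbb-bs and Hbb-bt at 0, epithelial cells 1.54 CPM and hepatocytes 0.380 CPM with Ttr at 0. The CD4 T cell list summed to 4.31 and 5.57 CPM in sgNT and sgElovl1 cells of experiment 1 and to 8.67 and 10.6 CPM in experiment 2, nearly all of it Foxp3, while Cd4 had 0 to 6 counts a column.

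Elovl1, the targeted gene, was measured first as a check of the labels. In experiment 1 it stood at 110 CPM in sgNT and 61.3 CPM in sgElovl1 cells, and in experiment 2 at 93.5 and 55.8 CPM. Both sgElovl1 columns lay below both sgNT columns. The log2 fold change was -0.80 (SE 0.07, adjusted p = 3.80e-28, edgeR quasi-likelihood test over 16006 genes), or 57.5% of the sgNT level. Permuting the 4 columns, exactly and two-sided, gave p = 0.333, the smallest that the 6 arrangements allow. Guide-induced mutations need not remove the transcript, so the RNA level says nothing of how much enzyme was left.

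The promoters of Acox3 and Abcd3 are shown because these 2 members differed most, and in opposite directions, between the 2 experiments. Each line holds the 250 bases before the RefSeq transcript start, from 5′ to 3′ on the strand of the gene, in GRCm38.p6, an older build than the GRCm39 used for the counts. Capitals mark the GC box GGGCGG.
Acox3, chr5:35582784-35583033, plus strand: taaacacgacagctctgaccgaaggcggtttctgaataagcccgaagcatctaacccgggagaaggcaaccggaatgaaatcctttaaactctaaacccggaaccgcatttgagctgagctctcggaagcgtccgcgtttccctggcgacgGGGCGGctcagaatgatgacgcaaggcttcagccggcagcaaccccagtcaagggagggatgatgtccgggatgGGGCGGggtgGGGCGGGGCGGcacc
Abcd3, chr3:121815303-121815552, minus strand: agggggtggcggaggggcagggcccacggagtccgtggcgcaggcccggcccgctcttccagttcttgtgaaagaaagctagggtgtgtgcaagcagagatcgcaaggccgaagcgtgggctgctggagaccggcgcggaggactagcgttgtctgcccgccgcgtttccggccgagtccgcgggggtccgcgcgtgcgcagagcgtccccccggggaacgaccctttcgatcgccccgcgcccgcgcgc
The Acox3 window held 4 GC boxes, the last 3 of them within 25 bases of the start, and the Abcd3 window held none. RefSeq lists 2 starts for Abcd3, of which the outermost was used. Both strands were also searched for the nuclear receptor half-site AGGTCA, for the same half-site in direct repeat with 1 base between (DR1, the arrangement that PPAR and RXR pairs bind), for the CCAAT box, for the E-box CACGTG and for the cyclic AMP element TGACGTCA. None of these was in either window. Of the other members, the Scp2 window held 1 AGGTCA and 1 GC box, the Crot window 2 GC boxes and 1 CCAAT, and the Acaa1a window 3 of each of the latter motifs. Among 32851 mouse promoters of the same length, 32.7% held a GC box, 33.8% CCAAT, 14% AGGTCA, 6.02% CACGTG, 1.55% TGACGTCA and 0.0335% the DR1 repeat. A match is a run of letters and not a measured binding site. Promoters of Abcd2, Abcd4 and Hsd17b4 were not used here.

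OT-I T cells expressed most of the route, and its members lay at very different levels. To set genes side by side, CPM was divided by the exon length of each gene in kilobases, taken from the union of its annotated exons. On that scale the mean of the 4 columns was highest for Scp2, the sterol carrier protein X/2 locus whose longer product is a peroxisomal thiolase, at 28.8 CPM per kilobase. Acaa1a, the straight-chain thiolase, followed at 19.7 and Crot at 14.7 CPM per kilobase. These 3 genes of thiolytic cleavage and carnitine export ranked at the 89.0th, 84.0th and 79.0th percentile of the 15009 tested genes with a known exon length. Hsd17b4, the multifunctional enzyme of hydration and dehydrogenation, had 9.23 CPM per kilobase. Abcd4, a half-transporter that also serves lysosomal cobalamin export, had 4.05, Acox3, an acyl-CoA oxidase linked to branched chains, 3.11 and Abcd3, the transporter for long, branched and dicarboxylic acids, 2.14 CPM per kilobase, between the 40.6th and 52.6th percentile.

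The order depended on the length used. With the length of the longest coding transcript in place of all exons, an alternative chosen after seeing the data, Acaa1a came first at 49.4 CPM per kilobase, before Scp2 at 37.9 and Crot at 26.7, while Abcd4 at 13.5 passed Hsd17b4 at 11.7 and Acox3 reached 9.02. Abcd3 was lowest on both scales, at 4.05 CPM per kilobase of transcript. On the scale of all exons the column ranges of Abcd3 (1.64 to 2.67) and Acox3 (2.11 to 3.997) overlapped, as did those of Acox3 and Abcd4 (3.30 to 4.80), and all other neighbours in the order were apart. On the scale of the transcript the range of Hsd17b4 (10.53 to 12.6) overlapped those of Acox3 (6.12 to 11.6) and Abcd4 (10.95 to 15.96). Counting ran over whole gene spans, introns included, and no intronic share could be separated, so these levels are approximate.

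Overlap with other genes was largest for Scp2 and Acaa1a. In the GENCODE M21 annotation, 71.4% of the exon bases of Scp2 lay inside the span of Podn on the same strand, where a read fits both genes and the counter's default is to leave it out, and 32.2% of the 100-base windows of its transcript also occur in the pseudogene Scp2-ps2. Podn had 0 to 14 counts a column and Scp2-ps2 had 0. Of the windows of Acaa1a, 21.6% also occur in its paralogue Acaa1b, which had 1 to 9 counts against 3960 to 5514 for Acaa1a. The absolute levels of Scp2 and Acaa1a are therefore uncertain. For Crot the exon bases inside another gene on the same strand amounted to 0.715%, and for the other 5 members no exon base and no window was shared. Small genes lie on the same strand inside introns of Abcd3 (4633401B06Rik with 0 to 3 counts and Gm43609 with 4 to 15) and Hsd17b4 (Cd63-ps with 0 counts).

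Abcd2, a half-transporter with very long polyunsaturated chains among its substrates, was at the limit of detection. It had 5 counts in sgNT and 5 in sgElovl1 cells of experiment 1, and 4 and 0 in experiment 2. In sum, 9 counts in sgNT and 5 in sgElovl1 cells gave a ratio of 0.583 with an exact 95% interval of 0.153 to 1.94 for counting error alone, and no column exceeded 0.0950 CPM. No difference was detectable at this depth. The 0 of experiment 2 allows up to 0.0541 CPM.

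**Figure D1:**
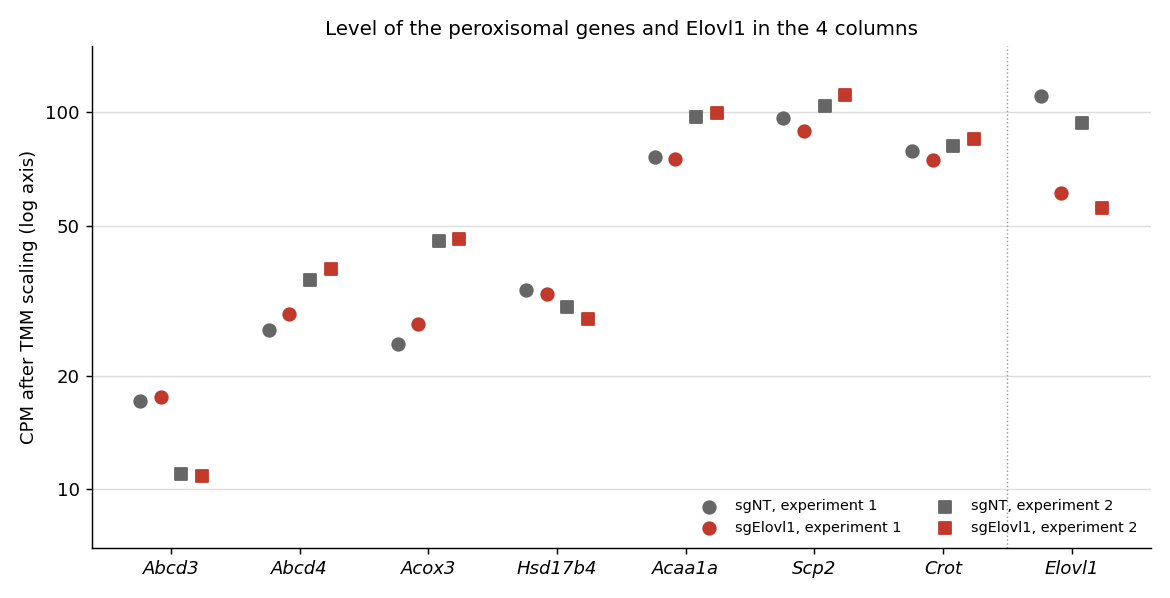
CPM after TMM scaling (vertical log axis) of 7 members and of Elovl1, 1 point for each of the 4 columns, each column the sum of 2 mice; circles are experiment 1, squares experiment 2, grey sgNT and red sgElovl1. For Elovl1 the red points lie below the grey ones, whereas the members separate by experiment, most visibly Acox3 (24.3 and 27.5 against 45.6 and 46.0 CPM) and Abcd3 (17.1 and 17.6 against 10.97 and 10.8 CPM). Abcd2, with at most 5 counts a column, is not drawn.

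The main question was whether the genes of VLCFA import and oxidation changed when VLCFA synthesis was targeted. None of the 7 tested members passed the threshold of an adjusted p of 0.05 in sgElovl1 against sgNT cells, and none had an unadjusted p under 0.05. Over all genes tested 1.2% were called in either direction (0.762% higher and 0.437% lower), and 10.6% had an unadjusted p under 0.05, so that 0 of 7 is near the background. In no member were the 2 sgElovl1 columns both above or both below the 2 sgNT columns, which was so in 12.6% of all genes. The median log2 fold change was 0.01 over the 7 members and -0.01 over all genes. In bulk RNA, fewer cells that express a gene and less of its RNA per cell cannot be told apart, here and below.

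Among the transporters, Abcd3 had 17.1 CPM in sgNT and 17.6 CPM in sgElovl1 cells of experiment 1, and 10.97 and 10.8 CPM in experiment 2. The conditions overlapped, and the log2 fold change was 0.01 (SE 0.11, adjusted p = 0.988 by edgeR, as are all adjusted p-values below). Its 95% interval ran from -0.20 to 0.23, which allows a change of between -13.03% and 17.1%. For Abcd4 the values were 26.4 and 29.1 CPM in experiment 1 and 35.8 and 38.5 CPM in experiment 2, with sgElovl1 the higher in each. Its log2 fold change of 0.12 was the furthest from 0 among the members (SE 0.08, 95% interval -0.03 to 0.28, adjusted p = 0.627). Taken 1 experiment at a time it was 0.14 (0.04 to 0.24) and 0.10 (0.01 to 0.19), where the intervals are exact binomial ones for counting error and leave out the spread between mice. Abcd4 was the 1 member of the 7 for which both of these intervals excluded 0 on the same side.

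Acox3, which makes the first step of the cycle, had 24.3 CPM in sgNT and 27.5 CPM in sgElovl1 cells of experiment 1, and 45.6 and 46.0 CPM in experiment 2. The log2 fold change was 0.09 (SE 0.08, 95% interval -0.06 to 0.24, adjusted p = 0.737). The excess of sgElovl1 cells was 0.18 (0.07 to 0.28) in experiment 1 and 0.02 (-0.07 to 0.10) in experiment 2, so that the counting interval excluded 0 in 1 of the 2 experiments. Hsd17b4, the next enzyme, had 33.9 and 33.0 CPM in experiment 1 and 30.5 and 28.3 CPM in experiment 2, with a log2 fold change of -0.07 (SE 0.08, 95% interval -0.23 to 0.08, adjusted p = 0.841). Here the counting interval was on the side of a decrease in experiment 2 (-0.21 to -0.01) and included 0 in experiment 1 (-0.13 to 0.06).

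The thiolases and Crot were the most precisely measured members, with 3936 to 6159 counts in a column. Acaa1a stood at 76.1 and 75.3 CPM in experiment 1 and at 97.1 and 99.5 CPM in experiment 2, a log2 fold change of 0.01 (SE 0.07, adjusted p = 0.985). Scp2 had 96.5 CPM in sgNT and 89.4 CPM in sgElovl1 cells of experiment 1, and 104 and 111 CPM in experiment 2. Its 2 experiments went in opposite directions, -0.11 (-0.17 to -0.06) and 0.10 (0.05 to 0.15) on the log2 scale, each beyond counting error, and the joint log2 fold change was -0.01 (SE 0.07, adjusted p = 0.990). Crot, the enzyme that hands shortened chains to carnitine for export, had 78.7 and 74.8 CPM in experiment 1 and 81.5 and 85.2 CPM in experiment 2. The same opposition was seen in smaller size, -0.07 (-0.13 to -0.01) and 0.06 (0.00 to 0.12), with a joint value of -0.01 (SE 0.07, adjusted p = 0.990). The sign of the 2 joint values was not stable: both turned to about 0.01 with other scaling factors. The 95% intervals of the joint values of these 3 genes lay between -9.04% and 10.2%.

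**Figure D2:**
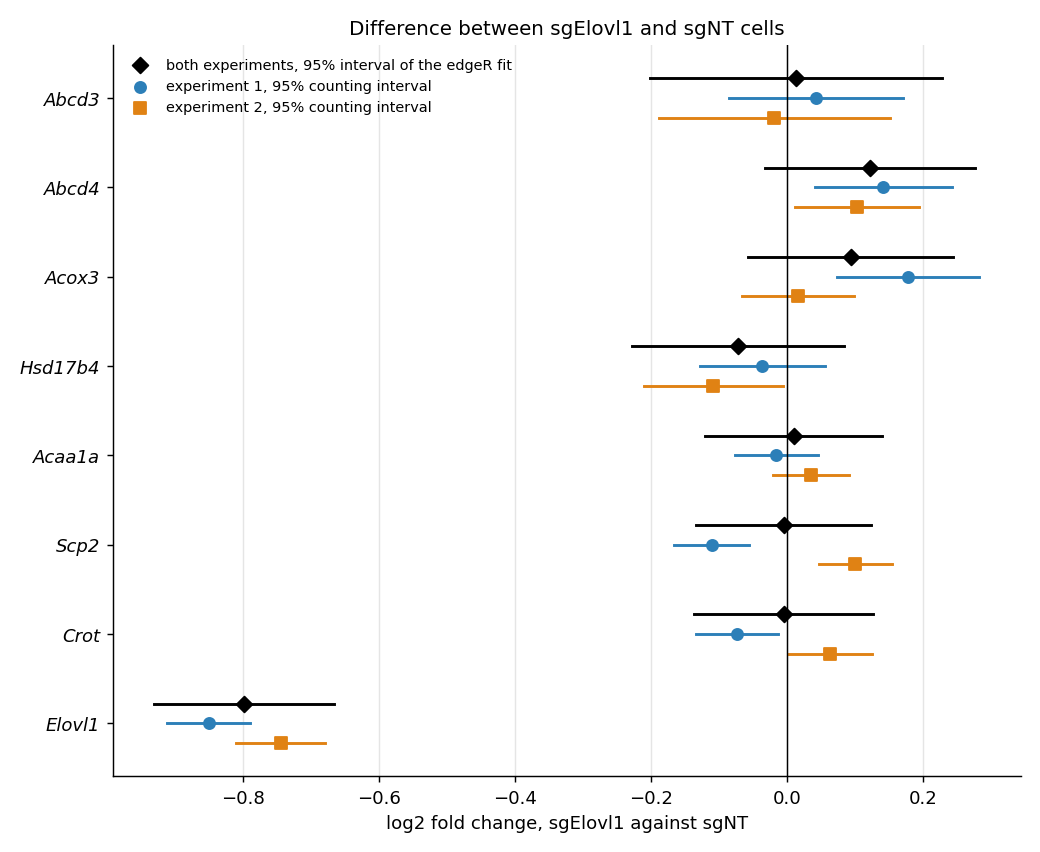
Log2 fold change of sgElovl1 against sgNT cells (horizontal axis) for each member and for Elovl1; black diamonds are the edgeR fit over both experiments with its 95% interval, and circles and squares are experiments 1 and 2 with exact 95% intervals for counting error only. The black intervals of the 7 members include 0 and that of Elovl1 does not. For Scp2, Crot, Abcd3 and Acaa1a the 2 experiments lie on opposite sides of 0, beyond counting error for Scp2 and Crot only.

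Each of the 7 members had a larger fold change between the experiments than between the conditions, which was the general pattern of the data. Over all genes tested the median absolute log2 fold change was 0.468 between the experiments and 0.116 between the conditions. The labels do not say what set the experiments apart, so the comparison describes how variable these genes were and names no cause. In experiment 2 against experiment 1, 6 of the 7 tested members passed the threshold, 4 higher and 2 lower. The background was high as well: 55.6% of all genes tested were called, 26.4% higher and 29.2% lower. All 7 members had columns that did not overlap between the experiments, which held for 75.8% of all genes. Neither count stands far from that background, and the results below are the size and direction for single members. Each experiment has 2 columns, 1 per condition, and the fit had 1 residual degree of freedom, so its p-values rest on a dispersion trend shared by all genes.

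Acox3 rose most. It went from 24.3 to 45.6 CPM in sgNT and from 27.5 to 46.0 CPM in sgElovl1 cells, a 1.77-fold higher level in experiment 2 (log2 fold change 0.82, SE 0.08, adjusted p = 2.34e-25). Of all genes tested, 14.3% had a higher log2 fold change than Acox3, a share that leaves out genes that fell. Within sgNT cells the difference was 0.91 and within sgElovl1 cells 0.74. Abcd4 rose 1.34-fold (log2 fold change 0.42, SE 0.08, adjusted p = 3.66e-07), by 0.44 in sgNT and 0.40 in sgElovl1 cells. Acaa1a rose 1.30-fold (0.38, SE 0.07, adjusted p = 5.71e-08), by 0.35 and 0.40.

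Abcd3 moved the other way. It fell from 17.1 to 10.97 CPM in sgNT and from 17.6 to 10.8 CPM in sgElovl1 cells, to 0.628 of its level in experiment 1 (log2 fold change -0.67, SE 0.11, adjusted p = 4.14e-09). Values within the conditions were -0.64 and -0.70, and 15.6% of all genes lay lower. Thus within the ABCD family 1 half-transporter fell and another rose, in both conditions. These 4 genes (Acox3, Abcd4, Acaa1a and Abcd3) kept their call and direction under each of the 13 other settings that were run.

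The remaining differences were small. Scp2 was higher by a log2 difference of 0.21 (SE 0.07, adjusted p = 0.00337), by 0.10 in sgNT and 0.31 in sgElovl1 cells. Without the sgElovl1 column of experiment 1 its value was 0.16 (adjusted p = 0.106) and without that of experiment 2 it was 0.15 (adjusted p = 0.317). Hsd17b4 fell by 0.19 (SE 0.08, adjusted p = 0.035), a call that was lost under 11 of the 13 other settings. Crot had 0.12 (SE 0.07, adjusted p = 0.123) and was called with upper-quartile scaling, at 0.20 (adjusted p = 0.00401), and when only genes of at least 5 CPM were kept, at 0.18 (adjusted p = 0.0114). Across the 7 members the median was 0.21, against -0.00 for all genes, and their summed level was 353 and 347 CPM in sgNT and sgElovl1 cells of experiment 1 and 405 and 419 CPM in experiment 2. The same columns differed in mitochondrial share and in single CD8 T cell markers. Of these, 4 of 8 were called higher in experiment 2 (Cd8a, Cd8b1, Cd3d and Cd3g, by 0.16 to 0.48 on the log2 scale). Another 2 were called lower (Gzmb at -2.03 and Thy1 at -0.58), where 26.4% of all genes were called higher and 29.2% lower. The part of the markers or of the mitochondrial share in the differences of the members was not tested.

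**Figure D3:**
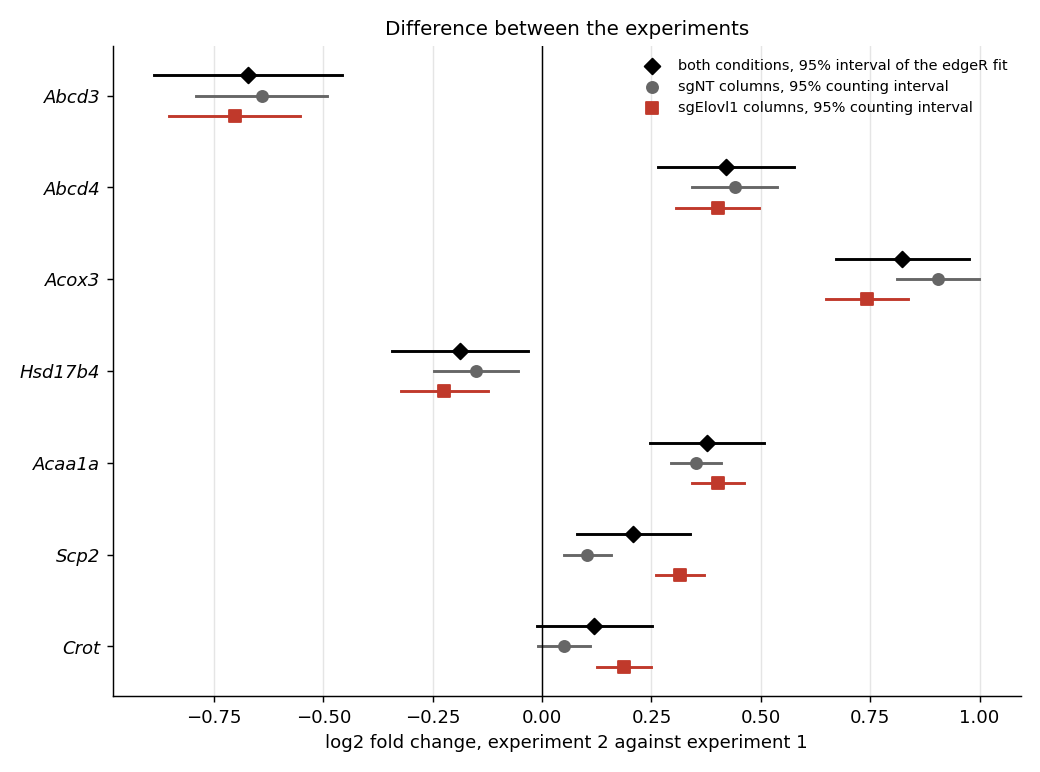
Log2 fold change of experiment 2 against experiment 1 (horizontal axis) for the 7 tested members; black diamonds are the edgeR fit over both conditions with its 95% interval, circles the sgNT columns and squares the sgElovl1 columns with exact 95% intervals for counting error only. Acox3 lies furthest to the right (0.82) and Abcd3 furthest to the left (-0.67), and for every gene both conditions lie on the same side of 0.

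The surrounding genes of the organelle were examined by lists. In sgElovl1 against sgNT cells no gene of the 6 lists passed the threshold, where 1.2% of all genes did. Of 24 further genes of peroxisomal fatty acid oxidation, 17 could be tested and had a median log2 fold change of -0.01. The smallest p was that of Acot8, the thioesterase that frees shortened chains from CoA, at -0.16 (adjusted p = 0.435), followed by Hacl1, which cleaves 2-hydroxy acids in alpha-oxidation, at 0.23 (adjusted p = 0.797). Ech1, an isomerase of unsaturated chains, had the highest level before correction for length, at a mean of 110 CPM. The 7 genes not tested were Acox2, Eci3, Acot3, Acot4 and Acot5, with 0 counts in every column, and Acaa1b and Slc27a2, which had too few.

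Peroxins, which insert membrane proteins and import enzymes from the cytosol, were all 15 tested, with a median of -0.02. Pex3, which recruits membrane proteins, had a log2 fold change of -0.15 (adjusted p = 0.702), and Pex6, an ATPase of receptor recycling and the peroxin of highest CPM at a mean of 100.3, had -0.01 (adjusted p = 0.979). Of the other peroxisomal enzymes and membrane proteins 12 of 13 were tested, with a median of -0.07. Agps, which makes the ether bond of plasmalogens, had -0.18 (adjusted p = 0.194), the membrane protein Pxmp4 -0.13 (adjusted p = 0.610) and the peroxidase Prdx5, at a mean of 92.8 CPM, -0.04 (adjusted p = 0.921).

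For contact with the endoplasmic reticulum and division of the organelle, 7 of 8 genes were tested, with a median of 0.02, Gdap1 having 0 counts. The acyl-CoA-binding tether Acbd5 had 0.11 (adjusted p = 0.720), Acbd4 0.09 (adjusted p = 0.829) and the fission factor Fis1, at a mean of 120 CPM, -0.03 (adjusted p = 0.931). Of the 11 PPAR receptors, partners and coregulators 8 were tested, with a median of -0.01. Ppara had 1 count in all columns together, and Ppargc1a and Rxrg had 0. Rxra, a partner of the PPARs, had -0.12 (adjusted p = 0.6198), the coactivator Ppargc1b 0.26 (adjusted p = 0.846) and the corepressor Ncor1, at a mean of 156 CPM, -0.00 (adjusted p = 0.991).

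Mitochondrial fatty acid oxidation, which receives the shortened chains, was the list set beside the members. All 19 of its genes were tested and none was called, with a median log2 fold change of -0.05. Cpt2, the carnitine acyltransferase of the inner membrane, had -0.22 (adjusted p = 0.405), Hadh, the dehydrogenase of short chains, -0.14 (adjusted p = 0.495) and Hadha, a subunit of the trifunctional protein at a mean of 161 CPM, -0.05 (adjusted p = 0.884). Their summed level was 971 and 920 CPM in experiment 1 and 852 and 851 CPM in experiment 2, for sgNT and sgElovl1 cells in turn.

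Between the experiments, where 55.6% of all genes were called, the lists differed in balance. Of the further oxidation genes 4 rose and 3 fell, with a median of -0.06. Among peroxins 3 rose and 7 fell (median -0.26), among the other peroxisomal proteins 1 rose and 7 fell (median -0.20), among contact and division genes 2 rose and 4 fell (median -0.19), among PPAR regulators 1 rose and 4 fell (median -0.19), and in mitochondrial oxidation 4 rose and 9 fell (median -0.14). With TMM scaling the member list, with 4 higher and 2 lower and a median of 0.21, was the 1 of the 7 lists whose median lay above 0, which was not tested. The sign of a list median near 0 depends on scaling. The median over all genes was -0.00 with TMM and 0.0812 with upper-quartile factors, for which list medians were not computed. Pex5, the import receptor for most matrix enzymes, rose by 0.80 (SE 0.09, adjusted p = 2.88e-19) and Pex6 by 0.56 (SE 0.07, adjusted p = 1.40e-16), while Pex3 fell by 0.52 (SE 0.11, adjusted p = 9.13e-06) and Agps fell by 0.65 (SE 0.07, adjusted p = 9.25e-21). Pex5 was picked after its values were seen.

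**Figure D4:**
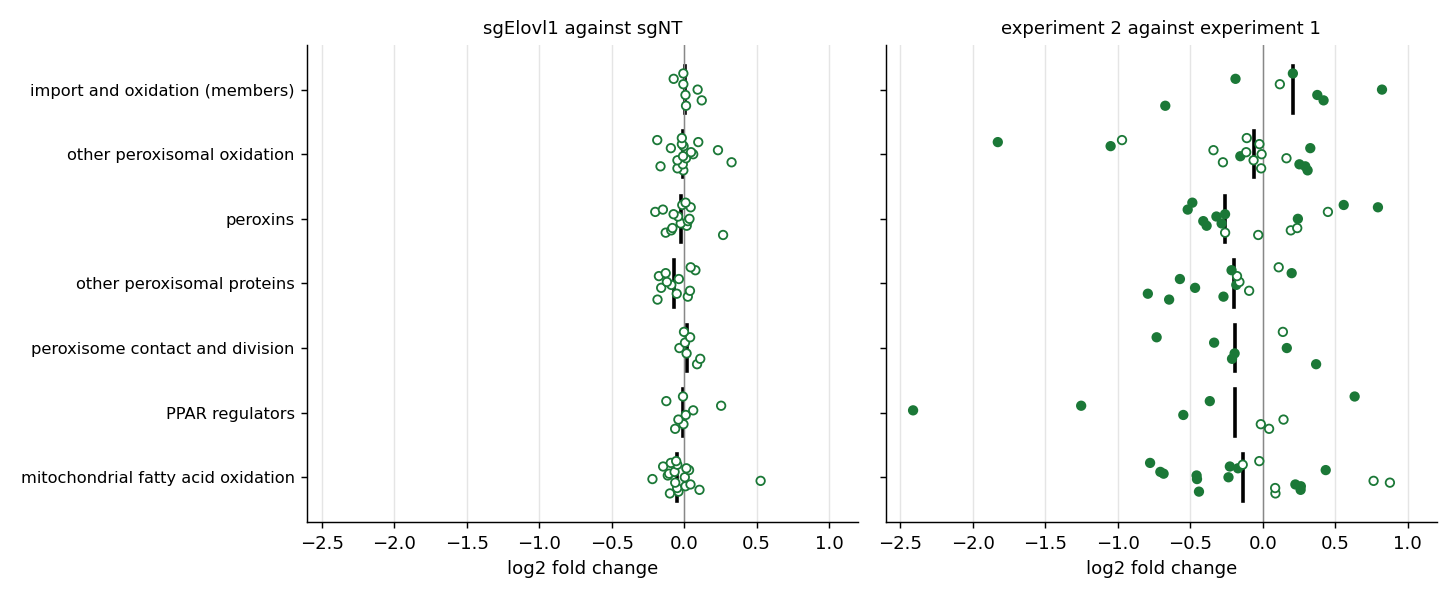
Log2 fold change of each tested gene of the members and of 6 other lists, in sgElovl1 against sgNT cells (left) and in experiment 2 against experiment 1 (right); filled points passed an adjusted p of 0.05 by edgeR, open points did not, and black lines are list medians. No point is filled on the left, with list medians between -0.07 and 0.02, whereas both signs are filled in every list on the right.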

How the data were processed

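RNA-seq of sgNT and sgElovl1 OT-I T cells was analysed from the count table alone. According to the methods and the submitters' notes, alignment by the authors used STAR 2.7.10b and GRCm39, and featureCounts 2.0.1 (R 4.3.3) assigned reads to whole gene spans in reverse-stranded mode, after which the mice of an experiment were summed. The deposited values are these raw counts in 4 columns. The authors tested them with DESeq2 1.42.0.

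Genes were filtered with filterByExpr (16006 of 56805 kept; 32132 had no count), scaled by TMM and fitted in edgeR 4.0.16 (quasi-likelihood F test) with experiment and condition as terms, Benjamini-Hochberg adjustment over all genes tested and a threshold of 0.05. The design allowed for 8 libraries, and the summed columns left 4. With 1 residual degree of freedom the prior degrees of freedom were infinite, so p-values and SEs rest on the shared trend (biological coefficient of variation 6.98%). Fold changes of 1 experiment have exact (Clopper-Pearson) binomial intervals. The scripts were tested on simulated data.

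Alternatives were 3 scalings, 2 filters, DESeq2 Wald and likelihood-ratio tests, limma-voom (limma 3.58.1), fits with only the factor tested, removal of the shift shared with the experiment difference, and leaving out each column. Exon lengths, overlaps and shared 100-base windows came from GENCODE M21 (GRCm38), as no annotation of the counting build was used here, and promoters from RefSeq. From each other list the text names the genes past the threshold, otherwise the 2 with the smallest p, and the gene of highest mean CPM. A gene that this rule takes is not reported here. Members and lists were chosen with earlier results of these data known.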

Additional observations from a re-analysis of the deposited data

Results flagged for a closer look

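4 members had an sgElovl1 against sgNT difference of opposite sign in the 2 experiments, and whether the experiments differed was not tested for any of them. On the log2 scale Scp2 had -0.11 in experiment 1 and 0.10 in experiment 2. Crot had -0.0742 and 0.0635 in the same order. For these 2 genes each counting interval excluded 0. The differences of Abcd3, 0.0419 and -0.0190, and of Acaa1a, -0.0163 and 0.0344, were within counting error in both experiments.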

How the results depend on the processing

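No member passed the threshold in sgElovl1 against sgNT cells under any of the 14 other settings, and between 4 and 6 members did so between the experiments under 13. Abcd3 received no adjusted p from either DESeq2 test of the conditions, so it was not judged against the threshold there. The number of genes called in sgElovl1 against sgNT cells, 192, was far less stable. It was 94 with no filter, 35 among genes of at least 5 CPM, 26 with the DESeq2 Wald test and 26 with its likelihood-ratio test, 72 with the shift between the experiments removed, and 0 by edgeR with only the factor tested (19 genes at an unadjusted p under 0.05). Leaving out 1 column gave 0 to 6 calls. The cause was not tested. Scaling moved the split of higher and lower calls from 122 and 70 to 182 and 57 (upper-quartile), 132 and 44 (DESeq2 size factors), and 173 and 44 (mitochondrial and top genes left out).

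Members near 0 changed sign. Scp2 and Crot, at -0.01 each, took 0.0127 and 0.0128 with upper-quartile scaling, 0.00868 and 0.00873 with the size factors of DESeq2, 0.0171 and 0.0172 without mitochondrial and top genes, 0.0108 and 0.0109 above 5 CPM, and 0.00857 and 0.00874 with both DESeq2 tests. Scp2 took 0.00199 with only the factor tested, and Acaa1a -0.0242 with the shift removed. With 1 column left out no residual degree of freedom allowed the experiment term, so the difference between experiments entered. The log2 fold changes then ran from -0.37 to 0.37 for Abcd3, -0.0869 to 0.38 for Abcd4, -0.33 to 0.62 for Acox3, -0.18 to 0.0553 for Hsd17b4, -0.15 to 0.15 for Scp2, -0.0813 to 0.0904 for Crot and -0.19 to 0.22 for Acaa1a. Elovl1 stayed lower, from -0.89 to -0.68, without passing the threshold there or with only the factor tested (-0.80). Between the experiments Hsd17b4 lost its call under 11 settings, at -0.23 to -0.10 (adjusted p 0.0575 to 0.446).

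No paired analysis was possible because the deposited columns sum the replicate mice, so the replicate block was not run. This concerns mice only, since the fit reported sets the conditions against each other within experiments. The depth of 3936 to 6159 counts leaves the thiolases and Crot with little counting error, while Abcd2 could not be compared.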
